A study of Mus musculus with 4 samples.

Results

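The genes of the retinal extracellular matrix were examined in RNA pulled down with an antibody to YTHDF2 from the retina of newborn mice. They were taken by a rule on the gene symbol, which uses no measured value, although the rule was set with earlier results of these data known: every collagen chain gene (*Col*), every laminin chain gene (*Lama*, *Lamb*, *Lamc*), both nidogens, and *Egflam*, *Fn1*, *Agrn*, *Hspg2*, *Sparc*, *Tnc*, *Vcan*, *Ncan*, *Bcan* and *Dag1*. This gave 67 of the 52550 genes in the count table, among them 44 collagens, 11 laminins, 2 nidogens and 10 other genes. Enough reads for a test of the pulldown were present for 33 of the 67.

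All samples were retinas of wild-type C57BL/6 mice at postnatal day 0, with no other allele and no treatment named in the labels. The tissue was dissociated with papain, the methods call the material retinal neurons, and each of 2 biological replicates gave 1 library of RNA from before the pulldown (input) and 1 library of RNA recovered with the anti-YTHDF2 antibody (RNA immunoprecipitation, RIP), 4 libraries in all. A control IgG named in the methods was not analysed here, so the comparison throughout is RIP against input. How many animals were pooled for a replicate is not given in the sources used here.

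YTHDF2 is a cytoplasmic protein that binds mRNA carrying N6-methyladenosine (m6A), a methyl mark placed mostly within a short motif of which GGACT is a common form, and it is known for leading bound mRNA to decay. The matrix genes encode the secreted scaffold of the eye. Collagen IV, laminin, nidogen and perlecan (*Hspg2*) build basement membranes such as the inner limiting membrane that borders the vitreous, the fibrillar and type IX collagens build the vitreous itself, and neurocan, versican and brevican are proteoglycans of the space between neurons. Pikachurin (*Egflam*), agrin (*Agrn*), perlecan and laminin alpha chains are ligands of dystroglycan (*Dag1*), a receptor that ties the cell surface to this scaffold.

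The libraries held 19530226 to 39499994 counts, of which 2083594 to 4175459 lay on protein-coding genes. The matrix genes together took 7683 and 6134 counts in input and 7412 and 6874 in RIP. As a share of protein-coding counts this was 0.188% and 0.147% in input and 0.336% and 0.330% in RIP, so that both RIP shares lay above both input shares. A count of 3 corresponded to 0.0874 to 0.125 CPM (counts scaled to library size with TMM factors), and values near it are given as counts. Such floors cover counting error only.

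In the input, *Col2a1*, the fibrillar collagen of the vitreous, had the highest level per length among the matrix genes, with 4.13 and 3.58 FPKM (fragments per kilobase, scaled to library size) in replicates 1 and 2. *Dag1* had an input level of 3.61 and 2.35 FPKM. *Sparc*, a collagen-binding glycoprotein, had an input level of 3.81 and 2.08 FPKM. The 3 ranges overlapped, so the order of these genes was not resolved beyond the spread between replicates. *Col9a1*, a chain of the type IX collagen that coats vitreous fibrils, had 2.80 and 2.86 FPKM, within the ranges of *Dag1* and *Sparc*, so its place among them was not resolved either. Lower means were those of the transmembrane collagen *Col23a1* with 2.53 and 1.80, and *Agrn* with 1.75 and 2.31, and the last pair overlapped as well. *Fn1* (fibronectin) had an input mean of 1.07 FPKM, *Col6a1* of 1.01 and *Ncan* of 0.976. The collagens and laminins of basement membranes were lower, with input means of 0.830 FPKM for *Col4a1*, 0.605 for *Col4a2*, 0.554 for *Lama1*, 0.518 for *Lamb2* and 0.384 for *Lamc1*. Ranking by CPM in place of FPKM kept 8 of the 10 highest genes.

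**Figure D1:**
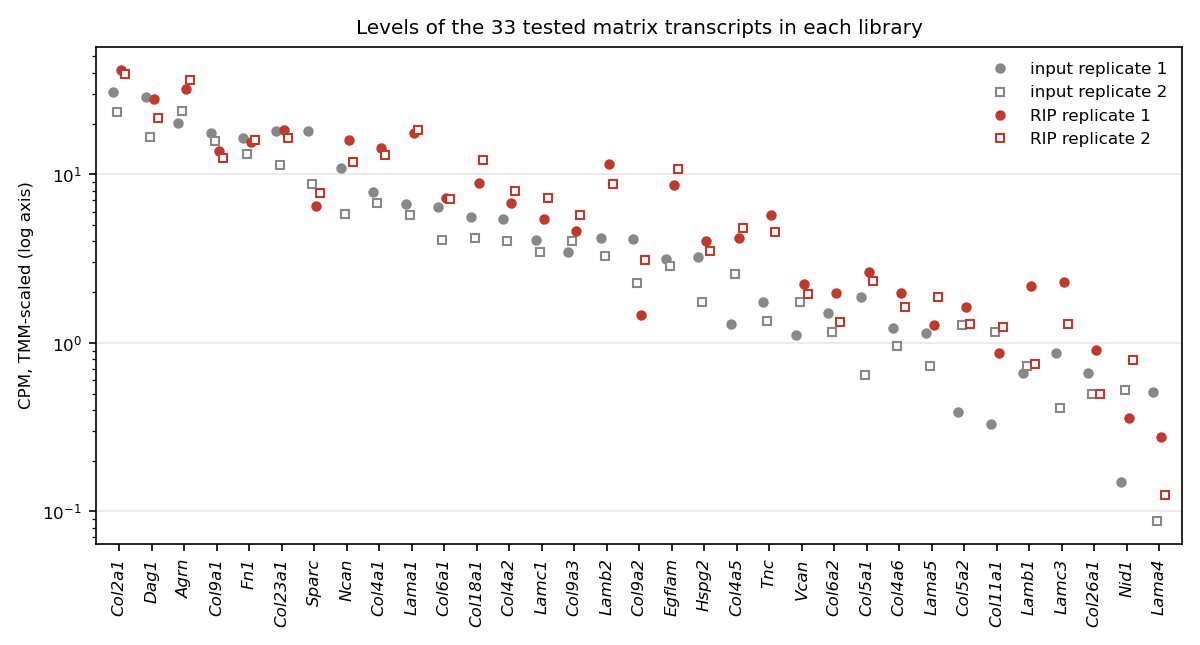
Level of each of the 33 tested matrix transcripts in every library, in CPM scaled with TMM factors on a log axis, ordered by mean. Gray marks are the 2 inputs, red marks the 2 RIP libraries, filled circles replicate 1 and open squares replicate 2. The RIP marks of *Lama1*, *Lamb2*, *Egflam* and *Tnc* stand well above their input marks, while those of *Sparc* stand below.

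Of the 34 genes too low to test, 28 were collagens, 4 were laminins and the others were *Nid2* and *Bcan* (brevican). *Col12a1*, *Col13a1*, *Col19a1*, *Col6a3* and *Col8a2* had a count of 0 in every library. The highest count of any untested gene in any library was 18, for *Lama3* in the second input. *Bcan* had 7 and 4 counts in input and 7 and 3 in RIP, and *Nid2* had 3 and 0 in input and 9 and 3 in RIP. *Col1a1*, the main collagen of connective tissue and a gene chosen after its values were seen, had 13 and 10 counts in input and none in either RIP library. The floor of 3 counts, in the RIP library where that floor was higher, lay 2.73-fold below the *Col1a1* input mean of 0.341 CPM. The counting error and spread of the 2 inputs are not included in that value.

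The pulldown held more of most of the tested matrix transcripts than the input. The largest differences were those of *Tnc* (tenascin C, a large glycoprotein of developing tissue), *Egflam* and the laminin genes *Lama1*, *Lamc3* and *Lamb2*. The log2 fold change of RIP against input was above 0 for 29 of 33 and ranged from -0.91 (*Sparc*) to 1.74 (*Tnc*), with a median of 0.64. Over all 13632 genes tested the median was -0.05 and 48.1% were above 0. By edgeR's quasi-likelihood test with Benjamini-Hochberg adjustment over all tested genes, *Tnc*, *Egflam*, *Lama1* and *Lamb2* rose, which is 4 of 33 or 12.1%, where 3.48% of all tested genes rose. All 4 have transcripts over 4000 nt, and among protein-coding genes the share that rose was 5.55% from 4000 to below 6000 nt, 7.26% from there to below 8000 nt and 8.79% at 8000 nt and over. With trends on length and GC content taken out, *Egflam* alone of the 4 passed, as described with transcript length. None of the 33 fell at an adjusted p below 0.05 by edgeR, where 9.78% of all tested genes fell. Among protein-coding genes below 2000 nt, a range that held 0 of the 33, 28.8% fell. The share was 5.90% from 2000 to below 4000 nt and 2.06% from there to below 6000 nt. It was 0.951% from there to below 8000 nt and 0.611% at 8000 nt and over. Shares of all tested genes that were lower cover all lengths and do not set the 33 apart from genes of like length. With edgeR 8 of the 33 were higher and 0 lower at an unadjusted p below 0.05, against 11.5% and 18.2% of all tested genes. With DESeq2 4 matrix genes rose and 0 of 39 fell at an adjusted p below 0.05 (4.69% and 9.87% of all genes given an adjusted p), and with limma 0 of 29 fell on log2(FPKM + 0.1) and on log2(FPKM + 1) (9.13% and 9.19% of all genes). Under the wider limits of an unadjusted p below 0.05 and a log2 fold change of at least 1, 7 matrix genes were higher in RIP (9.43% of all tested genes were), the added ones being *Lamc3*, *Col4a5* and *Col18a1*. Of the 33, 0 were lower under the same limits in edgeR, against 17.2% of all tested genes. Both RIP libraries lay above both inputs for 22 of the 33, or 66.7%, and this was so for 29.6% of all tested genes. Both lay below both inputs for *Sparc* and *Col9a1*, 2 of the 33, against 31.3% of all tested genes. With 2 libraries against 2, an exact two-sided permutation test of a single gene cannot go below a p of 0.333, so only the fit across all genes gives a test.

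With 1 library left out, its group has a single library and the spread is estimated from the other group alone. With either RIP library left out, 0 of the matrix genes passed in edgeR, where 0.054% of all tested genes rose without the first RIP library and 0.0604% without the second, with the log2 fold changes of the 4 genes still at 1.33 to 1.99. At an unadjusted p below 0.05, 4 of 39 matrix genes were higher without the first RIP library (4.54% of all tested genes) and 6 of 40 without the second (4.67%). Without the first input 17 of 34 matrix genes rose, where 16.7% of all tested genes did, and without the second input 8 of 35 rose, where 18.2% did. The RIP libraries, which differed less from each other than the inputs did, alone set the spread in these last fits. In data simulated on these libraries, with 200 of 13092 genes changed, the test recovered 57.4% of genes changed 4-fold and 5.05% of those changed 2-fold. In the real libraries many more genes were called, 474 higher and 1333 lower, which makes the adjustment less strict. The simulated shares therefore do not give the power of the test for the collagens. Without TMM scaling, by library size alone, the median of all tested genes moved from -0.05 to 0.27 and that of the matrix genes to 0.97, and the distance between the medians was 0.69 with TMM and 0.70 without.

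**Figure D2:**
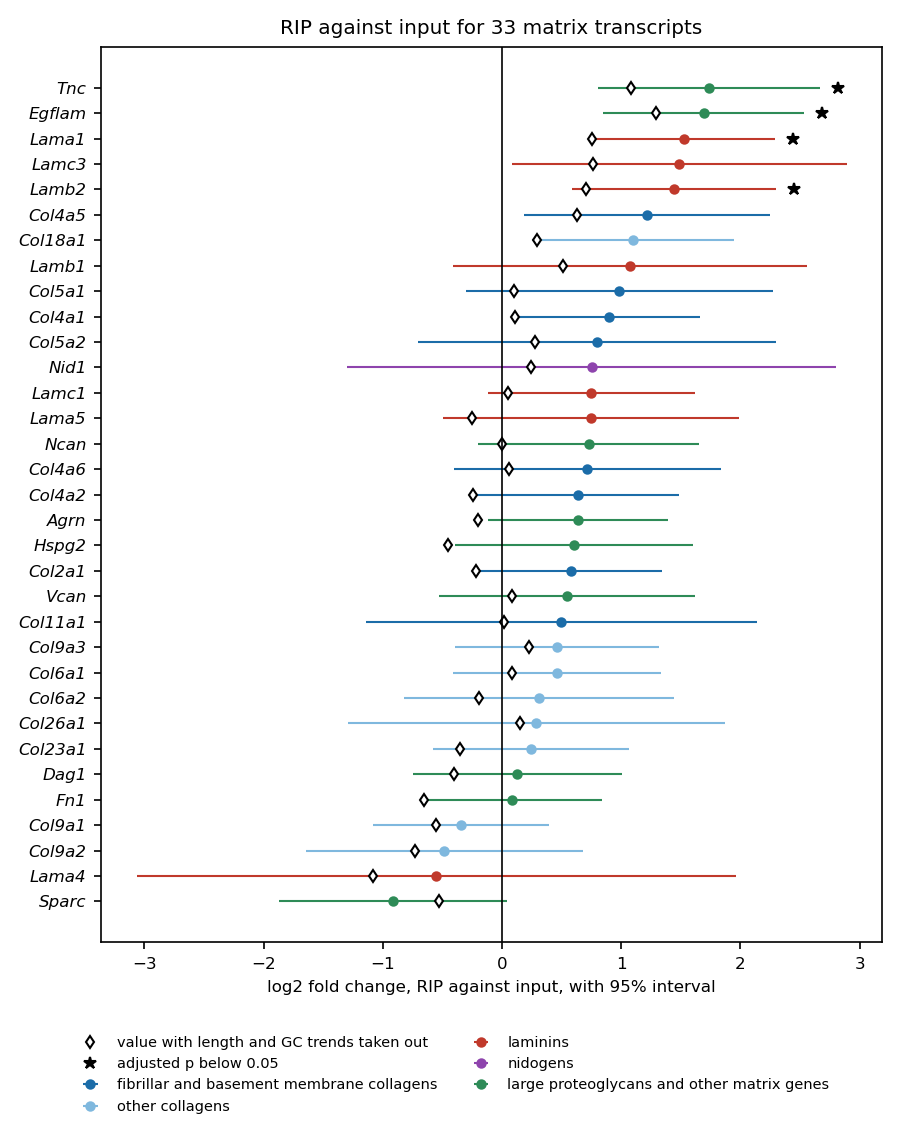
Log2 fold change of RIP against input for each tested matrix transcript (filled circles, coloured by family) with its 95% interval from edgeR, and the same value after trends on transcript length and GC content were taken out (open diamonds). Stars mark the 4 genes with an adjusted p below 0.05, and 8 of the 33 intervals lie wholly above 0 and none wholly below.

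Since YTHDF2 reads m6A, the transcripts were searched for GGACT on the sense strand, with every match counted. Each of the 33 matrix transcripts held at least 1 match, as did 94.0% of the tested protein-coding genes with an annotated coding region. The median was 1.30 matches per kilobase for the 33 and 1.03 for the tested protein-coding genes. The highest densities were those of *Col4a5* (22 matches, 3.37 per kilobase), *Col9a3* (2.95) and *Col4a1* (18 matches, 2.72), and the lowest was that of *Sparc*, with 1 match. As a description, the Spearman correlation of the log2 fold change with matches per kilobase was 0.317 over the 33 and 0.0772 over the protein-coding genes. A match is a string of letters and not a measured m6A site.

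In the collagens the matches sat largely in the reading frame of the Gly-X-Y repeat, the run of triplets opened by glycine that forms the triple helix. Read from codon position 1, GGACT is a glycine codon (GGA) followed by the first bases of a leucine codon. Of 131 coding matches in 15 tested collagens with an annotated coding region, 98 or 74.8% began at codon position 1. In the 4 tested collagen IV chains this was 53 of 66, or 80.3%. It was 28.1% of 57 coding matches in the 7 laminins, 22.0% of 59 in 9 other matrix genes, and 24.9% of 22712 over 10068 tested protein-coding genes. In these transcripts 13.8% of the collagen matches and 3.39% of the laminin matches lay in the 3' untranslated region, against 42.6% over the protein-coding genes.

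**Figure D3:**
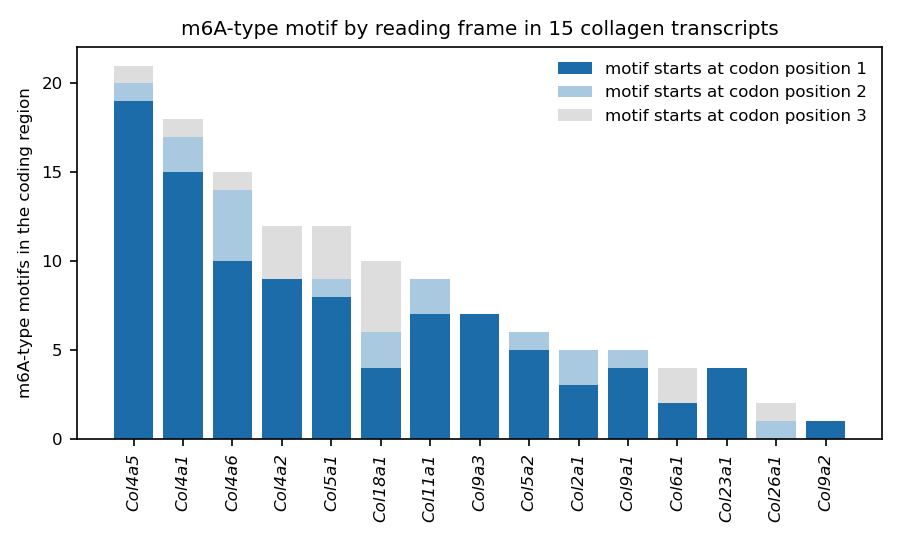
Number of GGACT matches in the coding region of 15 tested collagen transcripts, split by the codon position at which the match begins. Codon position 1 (dark blue), where the match reads as glycine and the start of leucine, makes up most of each bar for *Col4a5*, *Col4a1* and *Col4a6*, and 98 of 131 matches in all.

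To show this periodicity, the stretch of 90 bases of coding sequence with the most matches (the first such stretch where several tied) was taken from the longest GENCODE M21 transcript (GRCm38) of *Col4a5*, codons 975 to 1004, and of *Col4a1*, codons 78 to 107. Both are printed 5' to 3' on the sense strand from codon position 1, with GGACT in capitals.
Col4a5: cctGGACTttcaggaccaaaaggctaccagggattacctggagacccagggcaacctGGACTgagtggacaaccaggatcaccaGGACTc
Col4a1: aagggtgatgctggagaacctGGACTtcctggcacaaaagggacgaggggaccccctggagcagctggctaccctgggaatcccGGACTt
Every match in this pair starts at a codon, 3 in *Col4a5* and 2 in *Col4a1*, and glycine takes 10 of the 30 codons in each, as a triplet repeat gives.

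The same choice of stretch is given for the 4 genes that rose and for *Sparc*, the lowest, to show how a non-collagen matrix transcript carries the motif. The stretches are codons 171 to 200 of *Egflam*, 2618 to 2647 of *Lama1*, 433 to 462 of *Lamb2*, 1213 to 1242 of *Tnc* and 115 to 144 of *Sparc* (chr11:55394500-55423183, minus strand), with the same capitals.
Egflam: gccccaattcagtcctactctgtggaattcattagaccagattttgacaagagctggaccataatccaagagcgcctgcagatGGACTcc
Lama1: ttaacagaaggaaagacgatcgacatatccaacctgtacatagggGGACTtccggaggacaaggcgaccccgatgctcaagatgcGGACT
Lamb2: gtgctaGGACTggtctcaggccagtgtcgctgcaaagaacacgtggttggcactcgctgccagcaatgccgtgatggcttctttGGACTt
Tnc: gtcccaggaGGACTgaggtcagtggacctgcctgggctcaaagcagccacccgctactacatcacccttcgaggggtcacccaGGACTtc
Sparc: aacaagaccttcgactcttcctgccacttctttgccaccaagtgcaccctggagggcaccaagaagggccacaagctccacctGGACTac
Here the matches are in mixed frames: 0 of 1 start at a codon in *Egflam*, 1 of 2 in *Lama1*, 2 of 2 in *Lamb2*, 1 of 2 in *Tnc* and 0 of 1 in *Sparc*, and glycine takes 0 to 5 of the 30 codons.

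The laminins are trimers of an alpha, a beta and a gamma chain and carry the polymer on which a basement membrane assembles. Of 11 laminin genes 7 were tested, and the median log2 fold change was 1.07. Both RIP libraries lay above both inputs for 6 of the 7, against 29.6% of all tested genes. *Lama1*, the alpha chain of the laminin of early basement membranes (chr17:67697259-67822647, plus strand, GRCm38), had 6.66 and 5.71 CPM in input and 17.5 and 18.2 CPM in RIP. The RIP libraries stood apart from the inputs and differed little from each other, with counts of 222 and 196 against 441 and 438. *Lama1* had a log2 fold change of 1.53 (SE 0.335, 95% interval 0.76 to 2.29, edgeR adjusted p = 0.0214). *Lamb2*, a beta chain enriched in the retina and at synapses (chr9:108479736-108490530, plus strand), had 4.20 and 3.26 CPM in input and 11.6 and 8.73 CPM in RIP, again without overlap. *Lamb2* had a log2 fold change of 1.44 (SE 0.375, edgeR adjusted p = 0.0385), and it was 1.46 and 1.42 within replicates 1 and 2.

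*Lamc3*, a gamma chain that pairs with *Lamb2* in the retina, rested on few reads, with 29 and 14 counts in input and 58 and 31 in RIP. Its 2 groups did not overlap in CPM, and its log2 fold change of 1.49 (SE 0.616) missed the adjusted threshold (edgeR adjusted p = 0.148). *Lamb1*, the beta chain that pairs with *Lama1* and *Lamc1*, had 0.660 and 0.729 CPM in input and 2.18 and 0.748 CPM in RIP. Its fold change of 1.07 on the log2 scale came from the first RIP library, while the second lay just above the inputs. *Lamc1*, the gamma chain shared by most laminins, had 4.05 and 3.47 CPM in input and 5.39 and 7.23 CPM in RIP (log2 fold change 0.75, edgeR adjusted p = 0.229). *Lama5* also had both RIP libraries above both inputs, at a log2 fold change of 0.75 (SE 0.546). *Lama4*, the alpha chain of vessel walls, was the exception at -0.55, but with 17 and 3 counts in input and 7 and 3 in RIP its 95% interval ran from -3.06 to 1.96. *Nid1*, which links laminin to collagen IV, had 5 and 18 counts in input and 9 and 19 in RIP, groups that overlap, and a log2 fold change of 0.75 (SE 0.900).

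Among the ligands of dystroglycan, *Egflam* had the largest difference. Pikachurin is made by photoreceptors and acts at their ribbon synapse. *Egflam* (chr15:7206120-7398395, minus strand) had 3.15 and 2.86 CPM in input and 8.60 and 10.8 CPM in RIP, and all RIP values were above all input values. The log2 fold change was 1.69 (SE 0.369, 95% interval 0.85 to 2.53, edgeR adjusted p = 0.0210). *Agrn*, a heparan sulfate proteoglycan of basement membranes and the organiser of the neuromuscular synapse, had 20.2 and 23.6 CPM in input and 31.9 and 36.3 CPM in RIP. These groups did not overlap either, but the log2 fold change of 0.64 (SE 0.331) did not pass (edgeR adjusted p = 0.235). *Hspg2* had 3.21 and 1.75 CPM in input and 4.04 and 3.49 CPM in RIP (log2 fold change 0.60, SE 0.437). The receptor gene *Dag1* had 28.6 and 16.5 CPM in input and 27.8 and 21.5 CPM in RIP. Its RIP libraries lay between its inputs, and the log2 fold change was 0.13 (SE 0.384).

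The other matrix glycoproteins and proteoglycans split widely. *Tnc* (chr4:63959785-64047015, minus strand) had 1.74 and 1.34 CPM in input and 5.75 and 4.53 CPM in RIP, with no overlap. Its log2 fold change of 1.74 (SE 0.408, 95% interval 0.81 to 2.67, edgeR adjusted p = 0.0273) was 1.72 in replicate 1 and 1.76 in replicate 2. *Ncan*, the main chondroitin sulfate proteoglycan of the list in these libraries, had 10.9 and 5.80 CPM in input and 15.9 and 11.8 CPM in RIP (log2 fold change 0.73, SE 0.407), without overlap. *Vcan* was at 0.54 (SE 0.472) and *Fn1* at 0.08, with a 95% interval of -0.67 to 0.83 for *Fn1* and overlapping libraries. The sign of *Fn1* turned under TMM factors computed without small, ribosomal and mitochondrial RNA. *Sparc* was the lowest of the 33, with 18.0 and 8.77 CPM in input and 6.50 and 7.73 CPM in RIP. The inputs of *Sparc* differed 2.06-fold from each other, and the log2 fold change of -0.91 (SE 0.420) did not pass (edgeR adjusted p = 0.186). Without the first input *Sparc* was at -0.30 (edgeR adjusted p = 0.338), and without the second it was at -1.35 (edgeR adjusted p = 2.06e-04), in a fit where the RIP libraries alone set the spread and 19.8% of all tested genes fell.

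The fibrillar and basement membrane collagens had 17 members, of which 8 were tested. Each of the 8 was above 0 on the log2 scale (0.50 to 1.22, median 0.76). Both RIP libraries lay above both inputs for 7 of the 8, against 29.6% of all tested genes. However, 0 of the 8 passed at an adjusted p below 0.05 in edgeR, and none passed in DESeq2. At an unadjusted p below 0.05 in edgeR 2 of the 8 were higher, against 11.5% of all tested genes. *Col4a1*, which with *Col4a2* forms the most widespread collagen IV network (chr8:11198423-11312826, minus strand), had 7.86 and 6.76 CPM in input and 14.3 and 12.9 CPM in RIP. The libraries of *Col4a1* did not overlap, and the log2 fold change was 0.90 (SE 0.335, edgeR adjusted p = 0.114). *Col4a2* had 5.43 and 4.02 CPM in input and 6.78 and 7.94 CPM in RIP (log2 fold change 0.64, SE 0.371). *Col4a5*, a chain of a second collagen IV network and of Alport syndrome (chrX:141475385-141689234, plus strand), had 1.29 and 2.56 CPM in input and 4.16 and 4.82 CPM in RIP. Its log2 fold change was 1.22 (SE 0.453, unadjusted p = 0.0259, edgeR adjusted p = 0.113). *Col2a1* had 30.7 and 23.5 CPM in input and 41.8 and 39.2 CPM in RIP, with no overlap and a log2 fold change of 0.58 (SE 0.336). *Col5a1*, a minor fibrillar chain, had 1.86 and 0.641 CPM in input and 2.62 and 2.33 CPM in RIP and was at 0.98 (SE 0.566). It reached the wider limits with a block on the replicate, ran from 0.40 to 1.94 with a library left out, and was at 0.10 with the length and GC trends taken out.

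The other collagens, those of fibril surfaces, membranes and beaded filaments, had 27 members and 8 tested genes with a median log2 fold change of 0.30. Both RIP libraries lay above both inputs for 3 of the 8, near the share of 29.6% over all tested genes. None of these 8 passed at an adjusted p below 0.05 in edgeR or DESeq2. At an unadjusted p below 0.05 in edgeR 1 was higher, near the share of 11.5% over all tested genes. *Col18a1*, the source of endostatin and a component of the inner limiting membrane, had 5.61 and 4.20 CPM in input and 8.84 and 12.1 CPM in RIP. *Col18a1* had a log2 fold change of 1.10 (SE 0.373, unadjusted p = 0.0173, edgeR adjusted p = 0.0886). The opposite-strand gene *Slc19a1* overlaps *Col18a1*, had 36.5% as many counts, and was itself at a log2 fold change of 0.98. Whether the counting used strand is not given in the sources used here. The overlap was taken over whole genes, and how far their exons overlap was not measured. Whether reads of 1 of these genes were counted for the other was therefore not resolved. *Col4a1* and *Col4a2* lie head to head on opposite strands and share their first bases as well. The 3 chains of collagen IX lay on both sides of 0: *Col9a1* was at -0.34 (17.5 and 15.9 CPM in input, 13.8 and 12.6 CPM in RIP), *Col9a2* at -0.48 (SE 0.510) and *Col9a3* at 0.46 (SE 0.377). None of the chains passed, and the difference between the chains was not tested. By library size alone *Col9a1* was at 0.00.

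Replicates differed more in the input than in the RIP libraries. The difference between the 2 inputs had an SD of 0.898 on the log2 scale over the 33 genes, and that between the 2 RIP libraries had an SD of 0.564. Over all 13632 tested genes, with a small constant added to each level, these SDs were 0.755 and 0.419. The inputs differed more than 2-fold for 7 genes and the RIP libraries for 4, and the first input was above the second for 25 of 33. In bulk tissue, fewer cells of a type and less RNA per cell cannot be told apart, and this holds for these differences between inputs. The median log2 ratio of RIP to input was 0.49 in replicate 1 and 0.73 in replicate 2, and 27 of 33 genes had a ratio above 0 in both. This count and those between replicates above were not made over all tested genes. They describe the 33 genes and do not set them apart from others. *Tnc*, *Lama1*, *Lamb2*, *Lamc3* and *Egflam* were the genes with a log2 ratio above 1 in both replicates. *Col5a2* had a log2 ratio of 2.06 in replicate 1 and of 0.01 in replicate 2, and *Lamb1* of 1.72 and 0.04, so their fold changes rest on 1 replicate.

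**Figure D4:**
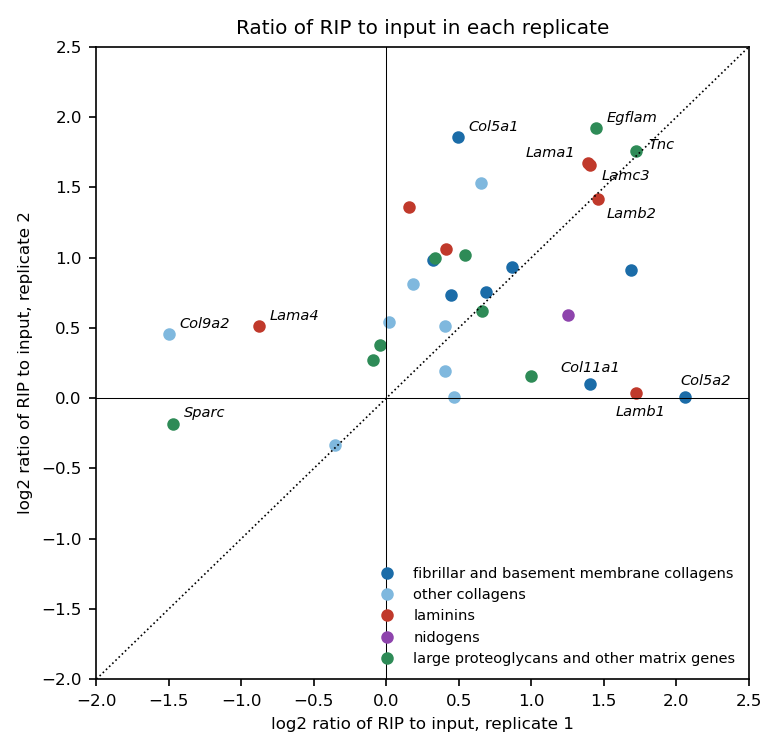
Log2 ratio of RIP to input in replicate 1 (horizontal axis) and replicate 2 (vertical axis) for the 33 tested matrix transcripts, coloured by family, with a dotted line where both ratios are equal. *Tnc*, *Egflam*, *Lama1*, *Lamc3* and *Lamb2* lie close to the line at high ratios, whereas *Col5a2* and *Lamb1* are high in replicate 1 alone and *Sparc* is below 0 in both.

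Matrix transcripts are long, and length moved with the pulldown over the whole table. The longest annotated transcripts of the 33 tested genes had a median of 6091 nt and 55.1% GC, against 3589 nt and 49.8% GC for the tested protein-coding genes. Among protein-coding genes the median log2 fold change was -1.02 below 2000 nt, -0.08 from 2000 to below 4000 nt, 0.33 from there to below 6000 nt, 0.50 from there to below 8000 nt and 0.58 at 8000 nt and over. The matrix genes in the last 4 ranges had medians of -0.34 (5 genes), 0.83 (10 genes), 0.75 (11 genes) and 0.64 (7 genes). In these ranges 2 of 5, 7 of 10, 9 of 11 and 5 of 7 lay above the median of their range. *Sparc* (2300 nt) was among the 5 shorter genes, while *Egflam* (4778 nt), *Lamb2* (5629 nt), *Tnc* (7106 nt) and *Lama1* (9526 nt) were spread over the longer ranges. As a description across genes, the Spearman correlation of the log2 fold change with length was 0.339 over the 33 matrix genes and 0.456 over 11953 protein-coding genes, where the genes share the same 4 libraries.

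When smooth trends on length and GC content were taken out of every library, the median log2 fold change of the matrix genes went from 0.64 to 0.061, and 1 of the 4 calls remained, where 6.56% of all tested genes rose. *Egflam* was then at 1.29 (edgeR adjusted p = 0.0195), *Tnc* at 1.08 (edgeR adjusted p = 0.0590), *Lama1* at 0.76 (edgeR adjusted p = 0.0678) and *Lamb2* at 0.71 (edgeR adjusted p = 0.104). With the length trend alone taken out, a setting chosen after the data were seen, *Egflam* was at 1.39 with an edgeR adjusted p of 0.0519. None of the 33 rose at an adjusted p below 0.05 by edgeR in that setting, where 2.2% of all tested genes did. At an unadjusted p below 0.05, 4 of the 33 were higher and 0 lower in that fit, against 11.5% and 13.4% of all tested genes. With both trends taken out, 4 were higher and 2 lower (*Fn1*, *Col9a1*) at an unadjusted edgeR p below 0.05. The shares of all tested genes at that unadjusted limit are not given for the fit with both trends. The signs of *Agrn*, *Col23a1*, *Col2a1*, *Col4a2*, *Dag1*, *Fn1*, *Hspg2* and *Lama5* turned from above 0 to below 0 with both trends taken out. A length bias of the assay and binding that itself grows with length cannot be told apart in these data.

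**Figure D5:**
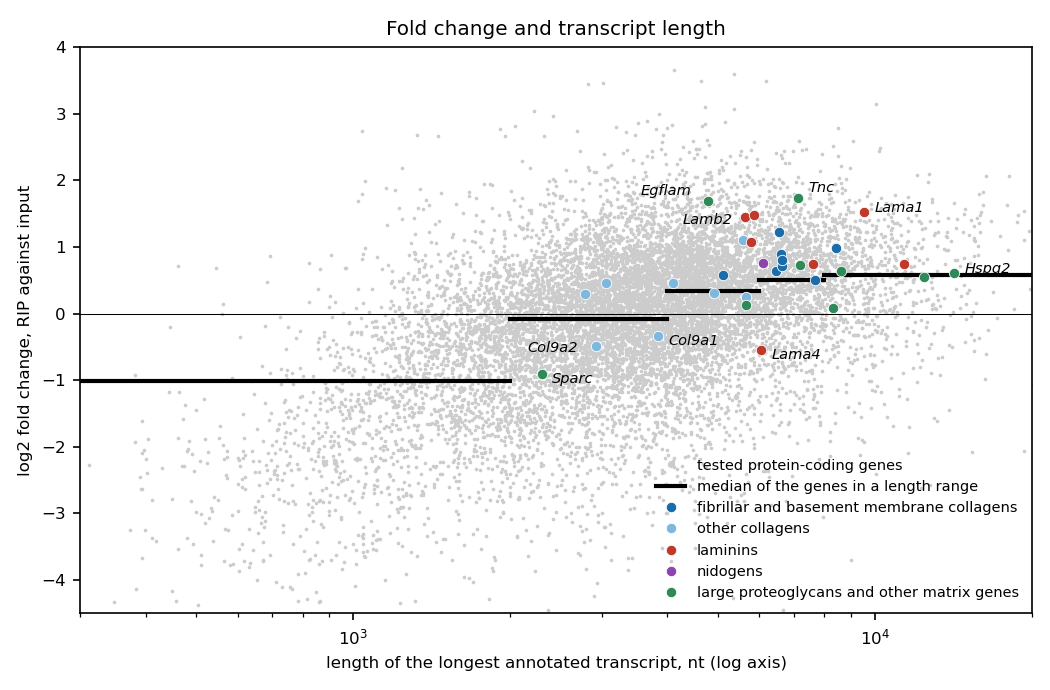
Log2 fold change of RIP against input plotted against the length of the longest annotated transcript (log axis) for tested protein-coding genes (gray) and the matrix genes (coloured by family). Black bars are the median of the genes in each length range, rising from -1.02 below 2000 nt to 0.58 at 8000 nt and over, and *Egflam*, *Tnc* and *Lama1* lie above the bar of their range.

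Genes that make, modify, bind or cut the matrix were compared with the same test. The shares of all tested genes to read these counts against are 3.48% higher and 9.78% lower at an adjusted p below 0.05 in edgeR, 11.5% and 18.2% at an unadjusted p below 0.05, and 4.69% and 9.87% in DESeq2. Of 20 tested enzymes and chaperones of collagen synthesis, 1 rose and 1 fell at an adjusted p below 0.05, with a median log2 fold change of 0.14. *Tll1*, a tolloid protease that trims procollagen, had 9 and 34 counts in input and 91 and 99 in RIP and rose by 2.60 on the log2 scale (edgeR adjusted p = 0.0264), while its relative *Bmp1* was at 1.23 (edgeR adjusted p = 0.106). *Ppib*, the prolyl isomerase cyclophilin B that helps collagen to fold, had 52.1 and 28.4 CPM in input and 7.93 and 9.11 CPM in RIP and fell by 2.24 on the log2 scale (edgeR adjusted p = 0.0102). The collagen chaperone *Serpinh1* was at -0.66 (edgeR adjusted p = 0.262).

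Of 22 tested matrix receptors, 1 rose and 0 fell at an adjusted p below 0.05 in edgeR, with 5 higher and 0 lower at an unadjusted p below 0.05, and the median log2 fold change was 0.68. DESeq2 called 3 higher and 0 lower. *Lrp4*, the agrin receptor, had 7.17 and 8.71 CPM in input and 18.9 and 17.8 CPM in RIP and rose by 1.21 on the log2 scale (edgeR adjusted p = 0.0469). *Itgb5*, an integrin beta chain, was at 1.25 (edgeR adjusted p = 0.066), and the lowest receptor genes named, *Sdc2* and *Cd44*, were at -0.29 and -0.37. Of 23 tested genes of the dystroglycan complex and its sugar chain, 0 rose and 2 fell in edgeR, with 3 higher and 3 lower at an unadjusted p below 0.05, and the median was 0.21. DESeq2 called 1 higher and 3 lower. *Sgce*, a sarcoglycan, fell by 2.58 and *Dpm1*, which makes the mannose donor, fell by 1.60 on the log2 scale (edgeR adjusted p = 0.00845 and 0.0302), while the glycosyltransferase gene *B3galnt2* was at 1.98 without passing. Of 20 tested proteases and inhibitors, 2 rose and 0 fell in edgeR, with 3 higher and 0 lower at an unadjusted p below 0.05 and a median of 0.23, and DESeq2 called 2 higher and 0 lower. The edgeR calls were *Adamts4* (1.54, edgeR adjusted p = 0.0278) and *Adamts15* (1.53, edgeR adjusted p = 0.0431), proteases that cut versican and related proteoglycans, and *Ctsl* and *Timp2* were at -0.59 and -0.68 without passing.

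Matrix genes are also made by cells next to the retina and in its vessels, so markers of those cells were summed. Vessel and mural cell markers summed to 37.6 and 35.1 CPM in input and 73.5 and 75.2 CPM in RIP, and 1 gene made up most of each sum. This was *Kdr*, a receptor of endothelial growth factor signalling, with 29.9 and 30.2 CPM in input and 63.3 and 65.0 CPM in RIP (log2 fold change 1.09, edgeR adjusted p = 0.0605). Other endothelial markers were lower in RIP or near the floor, with *Cldn5* at -0.28 and *Flt1* at -0.78 without passing, and *Pecam1* at 7 and 7 counts in input and 0 in both RIP libraries. Of these 16 markers 5 had a count of 0 in every library (*Abcc9*, *Emcn*, *Esam*, *Kcnj8*, *Tie1*). Of the 7 tested, 1 rose and 1 fell at an adjusted p below 0.05 in edgeR, against 3.48% and 9.78% of all tested genes. Their median log2 fold change was 1.09, and DESeq2 called 2 higher and 0 lower. *Pdgfrb* rose by 1.63 on the log2 scale (edgeR adjusted p = 0.0376). *Rgs5* fell (edgeR adjusted p = 0.0474), with 13 and 14 counts in input and none in either RIP library. *Notch3* was at 1.34 (edgeR adjusted p = 0.0955). Lens markers were at or near 0, with 10 of 14 at a count of 0 in every library and sums of 0.317 to 0.670 CPM. Astrocyte markers summed to 1.20 to 1.87 CPM, and microglia markers to 2.27 to 4.74 CPM. Mesenchyme markers summed to 5.57 to 9.81 CPM with *Dcn*, *Lum*, *Postn*, *Foxc2* and *Twist2* at 0. Of these sums *Thy1*, which is also on the ganglion cell list, gave 8.22 and 3.76 CPM in input and 2.93 and 3.78 CPM in RIP. Markers of the pigment epithelium summed to 25.2 to 41.1 CPM with *Rpe65*, *Tyr*, *Tyrp1*, *Pmel* and *Mlana* at 0. Nearly all of this was *Otx2*, which photoreceptor precursors also express, with 40.4 and 33.3 CPM in input and 24.6 and 31.4 CPM in RIP.

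Most markers of the retina itself had counts, with *Arr3* (cone photoreceptors) and *Calb1* (horizontal and amacrine cells) at 0 in every library. Progenitor and Mueller glia markers, cells known to make matrix proteins, summed to 1133 and 764 CPM in input and 820 and 801 CPM in RIP. Of these sums *Ccnd1* gave 685 and 424 CPM in input and 459 and 445 CPM in RIP. Among the 12 markers 2 were lower in RIP at an adjusted p below 0.05 in edgeR (*Sox2*, *Hes1*), where 9.78% of all tested genes were. Ganglion cell markers summed to 117 and 111 CPM in input and 50.9 and 47.2 CPM in RIP, with 4 of 13 tested lower by the same test (*Sncg*, *Gap43*, *Stmn2*, *Nefm*). *Sncg* (852 nt) and *Gap43* (1420 nt), like *Hes1* (1468 nt), are below 2000 nt, where 28.8% of tested protein-coding genes fell. *Stmn2* (3413 nt) and *Nefm* (3680 nt) lie from 2000 to below 4000 nt, where 5.90% fell. The inputs of *Nefm* were 7.20 and 24.4 CPM. Photoreceptor markers summed to 82.0 and 73.9 CPM in input and 112 and 119 CPM in RIP. Of these sums *Crx* gave 32.8 and 30.4 CPM in input and 58.4 and 58.7 CPM in RIP. *Prdm1* gave 14.7 and 20.2 CPM in input and 29.3 and 32.6 CPM in RIP. *Opn1sw* went the other way, with 11.6 and 6.97 CPM in input and 3.88 and 5.36 CPM in RIP. Of the 10 photoreceptor markers 8 were tested, with a median log2 fold change of 0.22 and 5 above 0. Amacrine and horizontal cell markers summed to 78.2 and 131 CPM in input and 65.5 and 58.8 CPM in RIP. The part of these cell types in the differences between RIP and input was not tested.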

How the data were processed

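Input and anti-YTHDF2 RIP RNA of P0 retina were sequenced in 2 biological replicates from stranded libraries. The authors deposited whole-number counts per gene and, in another table, FPKM values that they had scaled for gene length and library size. The submitters' processing notes name STAR 2.5, HTSeq and GRCm38. Their settings, strand mode and annotation are not given in the sources used here.

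Genes with enough counts (edgeR filterByExpr at a count of 10 and a total of 15) were TMM-scaled and tested in R 4.3.3 with edgeR 4.0.16 (glmQLFit, glmQLFTest) over all 13632 tested genes, with Benjamini-Hochberg adjustment at 0.05. Alternatives used DESeq2 1.42.0, limma 3.58.1 on log2(FPKM + 0.1) and log2(FPKM + 1) for a mean FPKM of at least 0.1, other scalings and filters, mgcv 1.9.3 smooth trends (basis size 8) on length and GC content, tested with edgeR, and each library left out. The trends on length alone and on GC content alone were added after the data were seen. The fits were checked on simulated data. Precision was limited to 2 libraries per group.

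Lengths, positions and sequences were read from GENCODE M21 on GRCm38 (52403 of the 52550 identifiers matched), 1 longest transcript per gene. The wider limits (log2 fold change of at least 1, or -1 or lower, and unadjusted p below 0.05) were given beside the adjusted threshold.

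The design text gives each replicate an input and a pulldown, so equal numbers pair the libraries by design. Across all tested genes the difference between inputs and that between RIP libraries had a Spearman correlation of -0.0364 and a Pearson r of -0.0348. The model left the replicate out, and a block on it was an alternative.

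The matrix genes, the 4 pathway lists, the 10 marker lists and the naming rule were chosen with earlier results of these data known. Named were all genes passing a threshold, the 5 highest input FPKM values in each family, a fixed set of known retinal matrix genes, and at most 4 genes of each pathway list (lowest adjusted p, at most 2 in each direction). Other genes named, among them untested ones and those at extremes of a measure, were chosen after their values were seen.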

Additional observations from a re-analysis of the deposited data

How the results depend on the processing

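The log2 fold changes of the 4 genes that rose stayed above 0 in every setting run. Their count was 1 with the length and GC trends taken out, 1 with those trends and the replicate block, 0 with the length trend alone and 7 with the GC trend alone, and leaving out 1 library at a time gave 0 to 17. The count of genes that fell was 0 to 1 with a library left out (*Sparc*, without the second input). Under the wider limits the count of higher genes was 11 by library size alone, 0 with log2(FPKM + 1), where the pseudocount shrinks low levels, 2 with both trends taken out, 2 with these and the block, 3 with the length trend alone, and 4 to 10 with a library left out. The count of lower genes was 1 in DESeq2 and 1 with no filter, both *Col1a1*, and 0 to 1 with a library left out. The median log2 fold change, 0.64 as reported, was 0.97 by library size alone, 0.36 with log2(FPKM + 1), 0.061 with both trends taken out, 0.086 with these and the block, 0.19 with the length trend alone, and 0.56 to 0.79 with a library left out. Shares of all tested genes under the wider limits are not given for these settings. At the adjusted threshold they are not given for the GC trend alone or for fits with the replicate block. These counts show how calls moved between settings and do not set the matrix genes apart from others. The cause of these shifts was not tested.

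With the replicate block alone the median was 0.70, 4 genes passed and 8 reached the wider limits, *Col5a1* being the added one, and no other call changed. *Lamb2* missed the threshold with no filter on low counts (adjusted p = 0.0510), and *Tnc* missed it with log2(FPKM + 0.1) (0.0546) and log2(FPKM + 1) (0.0713). *Lamc3*, *Lama4* and *Nid1* had few counts, down to 14, 3 and 5 in a library, and counting error was not separated from the spread between replicates.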
